A study of Mus musculus with 6 samples.

Results

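The 10 genes described here encode acute-phase proteins that fat tissue is known to make, and they were taken by gene name from a table of 55039 genes. They are serum amyloid A genes (Saa1, Saa2, Saa3), the lipocalin Lcn2, the plasma carriers Hp, Orm1 and Cp, the serpins Serpina3n and Serpina3g, and the glycoprotein Lrg1. Their transcripts were measured by mRNA sequencing of mouse eWAT, the white fat that lies along the epididymis. The 6 libraries, 1 per mouse, came from 3 tumor-bearing mice (CAC) and 3 control mice (CONT). All mice were male C57BL/6 animals aged 6 to 7 weeks when the experiment began. CAC mice received 5000000 Lewis lung carcinoma (LLC) cells, a transplantable mouse lung tumor line, under the skin near the ilium, and CONT mice received phosphate-buffered saline (PBS) at the same step. Tissue was taken on day 28 from both groups, so the comparison asks how these genes differ in fat after 28 days with this tumor model. No mouse was genetically altered, and the 1 tumor line and 1 time point limit what the groups model.

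Acute-phase proteins are secreted plasma proteins whose levels shift during inflammation, infection and cancer. The liver is their main source, where IL-6 type cytokines act through the shared receptor chain Il6st and the transcription factor Stat3, and where interleukin-1 acts through NF-kB, with C/EBP factors and glucocorticoids adding to the response. White fat makes a set of the same proteins itself, in adipocytes, in their precursors and in resident macrophages. In bulk tissue, fewer cells of a type and less RNA per cell cannot be told apart, and this holds for every level below.

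The libraries held 15713794 to 25926425 counted reads, and each CAC library (22829269 reads or more) was deeper than each CONT library (20638492 or fewer). Levels within a gene are given as CPM, the read count scaled by the library size that edgeR's TMM method adjusts, where 1 CPM stood for 11.2 to 26.5 reads. Levels between genes are given as the deposited FPKM, which also divides by gene length. All 9 adipocyte markers examined were present in every library, with summed levels of 23278 to 55084 CPM in CONT and 17109 to 39548 CPM in CAC, as the tissue label requires, although the hormone gene Lep was at 3.996 and 0.415 CPM in CAC replicates 2 and 3, against 409 to 697 CPM in CONT and 512 CPM in CAC replicate 1. Of these, the 2 with the smallest p were Retn, a hormone of fat cells (log2 fold change -0.72, adjusted p = 0.555, edgeR, and -0.00017 without CONT replicate 1), and the lipid-droplet gene Cidec (0.53, adjusted p = 0.598, edgeR). Some libraries stood apart from the rest. Mitochondrial transcripts were 30.2% of the reads in CONT replicate 1 and 3.89% to 5.04% in the others. Markers of epididymis summed to 12206 CPM in CONT replicate 3 and to at most 215 CPM elsewhere, and liver markers summed to 113 CPM in CAC replicate 3 and to at most 36.3 CPM elsewhere. Neutrophil markers summed to 8.74, 52.2 and 83.3 CPM in CONT and to 183, 288 and 1391 CPM in CAC. 

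The sequences show where counting can and cannot tell the genes apart. Saa1, Saa2 and Saa3 lie in 1 cluster on chromosome 7, with Saa4 between Saa3 and Saa1, and their coding sequences are identical at 95.1% of aligned positions for Saa1 and Saa2, 74.5% for Saa1 and Saa3, and 72.9% for Saa2 and Saa3. A stretch of 60 coding bases is shown for each (bases 92 to 151 of each coding sequence, in exon 3 of 4, GRCm38), because it separates Saa1 from Saa2, with capitals at the 11 positions that are not the same in all 3 genes. It lies at chr7:46741335-46741394 on the minus strand for Saa1, at chr7:46753418-46753477 on the plus strand for Saa2, and at chr7:46712668-46712727 on the minus strand for Saa3.
Saa1: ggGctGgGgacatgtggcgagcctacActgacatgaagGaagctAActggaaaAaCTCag
Saa2: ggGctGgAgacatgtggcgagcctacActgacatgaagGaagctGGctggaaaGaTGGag
Saa3: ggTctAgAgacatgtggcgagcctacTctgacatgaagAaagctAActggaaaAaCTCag
Saa1 and Saa2 differ at 7 of these bases, Saa1 and Saa3 at 5, and Saa2 and Saa3 at 10. Of the 50-base windows of the Saa1 coding sequence, 17.5% occur unchanged in a transcript of another gene, against 14.7% for Saa2 and 2.81% for Saa3. The same share was 9.74% for Orm1, 11.1% for Serpina3n and 12.2% for Serpina3g, and 0% for Lcn2, Hp, Cp and Lrg1. Reads of the Saa, Orm and Serpina3 genes may therefore have been split between copies or dropped, and their counts are uncertain to that extent.

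Promoters of 8 of the 10 genes were found in the RefSeq table for GRCm38.p6 (all except Hp and Orm1). The 250 bases before the annotated start were searched on both strands for simple forms of 4 motifs: the C/EBP motif TTGCNNAA, the NF-kB motif GGNNTTTCC (a shortened and so looser form), the STAT motif TTCNNNGAA and the glucocorticoid receptor motif ACANNNTGT. The C/EBP letters were present in 5 of the 8 (Saa1, Saa2, Saa3, Lcn2 and one of the annotated starts of Cp), against 9.56% of 32851 promoters of the same length. NF-kB letters were present in 4 of the 8 (Saa3, Serpina3n, Serpina3g and the same start of Cp, against 4.93% of all promoters), glucocorticoid receptor letters in Lcn2 and Serpina3n (5.84%), and STAT letters in Serpina3g (7.02%). The NF-kB letters were shortened after matches in these promoters were seen, so their count cannot be weighed against that share. Serpina3n and Serpina3g belong to the same gene family, so their matches may not be separate observations. Where a promoter held 2 motifs they did not overlap, and Lrg1 held none of the 4. Saa1 and Saa2 are near copies, so their shared match at -182 and -183 from the start is 1 observation rather than separate ones. Printed here are the promoters of Saa3, Lcn2 and Serpina3n, with capitals at the motif letters. Saa3 was lower in CAC at an unadjusted p under 0.05. Among the acute-phase genes that could be tested, Lcn2 spread most between mice and Serpina3n had the larger of the upward differences.
Saa3, chr7:46715677-46715926, minus strand, NF-kB letters at -187 and C/EBP letters at -99: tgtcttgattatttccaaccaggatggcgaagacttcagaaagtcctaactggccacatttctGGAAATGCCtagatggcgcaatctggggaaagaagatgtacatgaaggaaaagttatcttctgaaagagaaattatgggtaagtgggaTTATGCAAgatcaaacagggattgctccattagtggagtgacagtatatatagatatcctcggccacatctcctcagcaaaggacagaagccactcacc
Lcn2, chr2:32387740-32387989, minus strand, C/EBP letters at -216 and glucocorticoid receptor letters at -152: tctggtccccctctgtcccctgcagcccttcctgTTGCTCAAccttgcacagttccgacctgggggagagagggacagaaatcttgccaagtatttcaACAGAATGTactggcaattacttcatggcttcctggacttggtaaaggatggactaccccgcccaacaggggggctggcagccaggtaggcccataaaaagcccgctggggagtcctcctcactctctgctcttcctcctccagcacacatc
Serpina3n, chr12:104406458-104406707, plus strand, NF-kB letters at -170 and glucocorticoid receptor letters at -76: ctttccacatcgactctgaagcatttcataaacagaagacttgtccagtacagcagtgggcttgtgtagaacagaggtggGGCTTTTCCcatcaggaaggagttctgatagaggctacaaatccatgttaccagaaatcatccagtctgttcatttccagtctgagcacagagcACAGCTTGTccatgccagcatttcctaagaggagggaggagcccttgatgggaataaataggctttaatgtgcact
These are matches of letters and not measured binding.

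Ordered by mean FPKM over the 6 libraries, Hp stood highest and the hepatic amyloids Saa1 and Saa2 lowest. Hp, the carrier of free hemoglobin, ran from 596 to 1298 FPKM and made up 46.9% to 79.3% of the summed FPKM of the 10 genes. Lrg1 followed at 131 to 237 FPKM, Serpina3n at 43.7 to 197 FPKM, Orm1 at 23.6 to 164 FPKM and Lcn2 at 1.66 to 309 FPKM. Lower still were Cp at 7.997 to 23.0 FPKM, Saa3 at 1.82 to 19.1 FPKM and Serpina3g at 1.12 to 2.79 FPKM. In all 6 libraries Saa2 and Saa1 were under 1 FPKM. Over ranges pooled across libraries, only 2 steps in this order were free of overlap, that from Hp to Lrg1 and that from Serpina3g to Saa2. Within every single library, Lrg1 was also above Serpina3n, Cp above Saa3 and Saa3 above Serpina3g. The remaining neighbours changed order between libraries. The summed FPKM of the 10 genes was 1359 ± 250 in CONT and 1126 ± 335 in CAC (SD, n = 3 each), a ratio of 0.828 that was within the spread between mice (exact permutation test, two-sided, p = 0.4, where 0.1 is the smallest p that 3 against 3 can give).

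**Figure D1:**
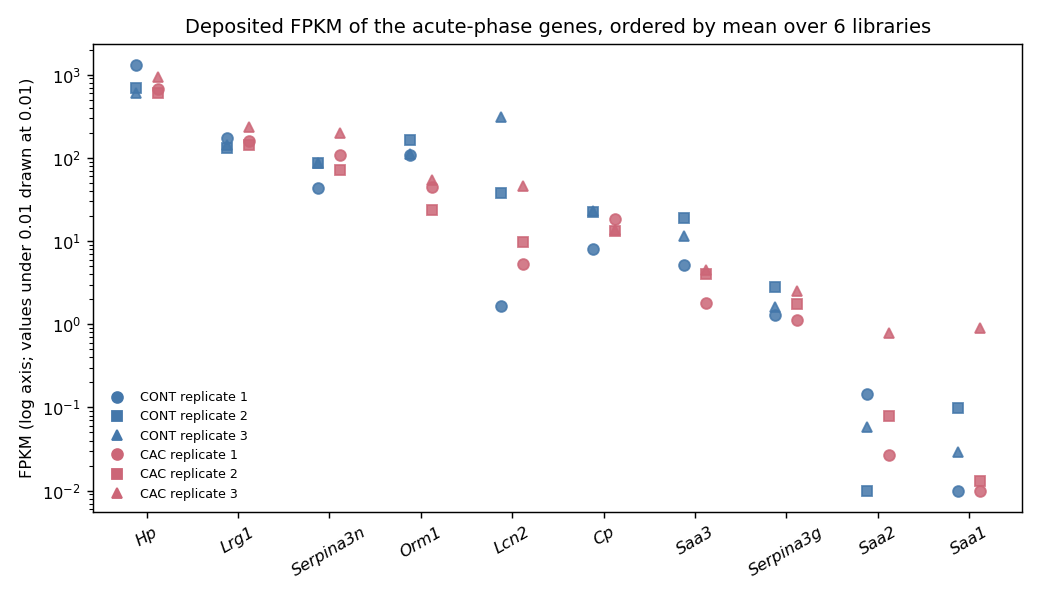
Deposited FPKM of each acute-phase gene (log axis) in the 3 CONT libraries (blue) and the 3 CAC libraries (red), 1 point per library, ordered by the mean over all 6 and with values under 0.01 drawn at 0.01. Hp stands alone at the top at 596 to 1298 FPKM, Saa1 and Saa2 stay under 1 FPKM, and Lcn2 spans 1.66 to 309 FPKM.

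CAC was compared with CONT by edgeR's quasi-likelihood test over the 17296 genes that passed the filter on low counts, with Benjamini-Hochberg adjustment over all of them. Of the 10 acute-phase genes, 8 could be tested, since Saa1 and Saa2 had too few reads. The count of the 10 genes with an adjusted p under 0.05 was 0, as it was for all genes (0%), and the adjusted p of the 8 ran from 0.228 to 0.948. At an unadjusted p under 0.05, 2 of the 8 were lower in CAC (Orm1 and Saa3) and 0 were higher, against 6.95% of all tested genes lower and 6.31% higher (13.3% in all). The same 2 genes were the members whose CAC libraries all lay below every CONT library, against 10.7% of all tested genes. The log2 fold change, always CAC over CONT, was below 0 in 6 of the 8 and above 0 in 2, with a median of -0.25, and the median over all tested genes was -0.06. DESeq2, the tool of the study, gave an adjusted p under 0.05 to the same 2 genes, and to 965 of the 17160 genes it assigned one (5.62%, made up of 2.40% lower and 3.22% higher in CAC).

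**Figure D2:**
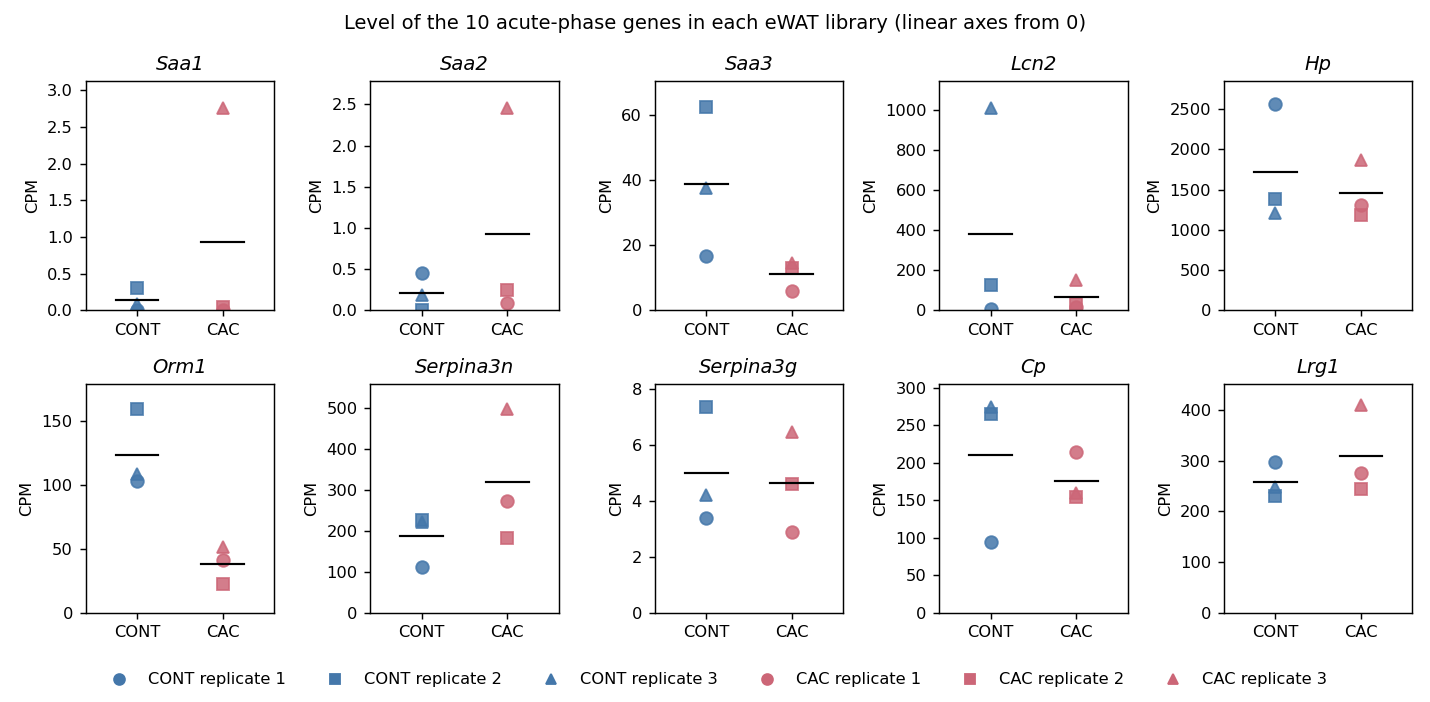
CPM of each of the 10 acute-phase genes in the 3 CONT (blue) and 3 CAC (red) libraries, 1 point per mouse, with a bar at the group mean and linear axes that start at 0. Saa3 and Orm1 are the genes whose groups do not overlap. Lcn2 is set by CONT replicate 3 (1008 CPM), and Saa1 and Saa2 by CAC replicate 3.

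Serum amyloid A proteins are apolipoproteins that ride on high-density lipoprotein and bind cells of the immune system. Mouse Saa3 is the form made outside the liver, in adipocytes and macrophages among others. Saa3 was at 16.6, 62.3 and 37.6 CPM in CONT replicates 1 to 3 and at 5.75, 12.8 and 14.4 CPM in CAC replicates 1 to 3. Each CAC mouse lay below each CONT mouse, although the highest CAC value and the lowest CONT value were close. The level was 38.8 ± 22.9 CPM in CONT and 11.003 ± 4.62 CPM in CAC (SD, n = 3), a 3.53-fold lower fitted level in CAC, with a log2 fold change of -1.82 (SE 0.56, 95% confidence interval -3.15 to -0.49). The edgeR p was 0.0149 unadjusted and 0.285 adjusted, and DESeq2 gave an adjusted p of 0.0379. Without CONT replicate 2, which had the highest level, the log2 fold change was -1.30 (unadjusted p = 0.0502, edgeR).

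Markers of cells that can make Saa3 were examined in the same libraries. Macrophage markers summed to 510, 1527 and 1553 CPM in CONT and to 1262, 721 and 914 CPM in CAC. Of the 10, 9 had a log2 fold change below 0, against 9353 of all 17296 tested genes. At an unadjusted p under 0.05, 1 of the 10 was lower, against 6.95% of all tested genes. It was the scavenger receptor Marco (-1.43, adjusted p = 0.298, edgeR). Cd5l, a protein secreted by tissue macrophages, was at -1.07 (adjusted p = 0.471, edgeR). Adipocyte progenitor markers summed to 2290 to 2679 CPM in CONT and to 1620 to 2198 CPM in CAC. Of the 9, 4 were lower at an unadjusted p under 0.05, against 6.95% of all tested genes. At an adjusted p under 0.05, edgeR called 0 and DESeq2 3, against 2.40% called lower over all genes by DESeq2. Dcn, the proteoglycan gene decorin, was instead at 780.4 to 973 CPM in CONT and at 1099 to 1498 CPM in CAC (log2 fold change 0.60, adjusted p = 0.395, edgeR). The smallest p values in that list were those of the collagen Col3a1 (log2 fold change -1.996, adjusted p = 0.228, edgeR) and of Pi16, a marker of early progenitors (-0.86, adjusted p = 0.250, edgeR). The part of these cells in the Saa3 level was not tested.

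Saa1 and Saa2 are the amyloid forms that the liver secretes in an acute response, and in this fat they were barely detected outside 1 library. Saa1 had 0, 7 and 2 reads in CONT and 0, 1 and 73 reads in CAC. Saa2 had 5, 0 and 4 reads in CONT and 2, 6 and 65 reads in CAC. A count of 0 allows up to 3 reads, or 0.268 CPM in CONT replicate 1, 0.131 CPM in CONT replicate 2 and 0.123 CPM in CAC replicate 1 (counting error only). Both genes thus reached 2.76 and 2.45 CPM in CAC replicate 3 and stayed at or under 0.446 CPM in all other libraries. Since their coding sequences are near copies, the summed count is less exposed to split reads, and it was 5, 7 and 6 in CONT and 2, 7 and 138 in CAC. Tested without the filter on low counts, Saa1 had a log2 fold change of 2.77 (SE 1.99) and Saa2 of 2.26 (SE 1.58), each with an adjusted p of 0.71 by edgeR. The neighbouring Saa4, which encodes a form made at a steady rate by the liver, had reads in the same CAC library only, at 0.642 CPM.

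CAC replicate 3 was also the library with the highest liver markers. Albumin (Alb) was at 55.8 CPM there and at 1.21 to 23.2 CPM elsewhere, and Fgb and Cps1, both defining genes of hepatocytes, were at 5.17 and 3.47 CPM there and at or under 0.357 CPM in the other 5 libraries. Of the 9 liver markers in the table, 5 could be tested, with 1 of them lower in CAC at an unadjusted p under 0.05 (6.95% of all tested genes), the protease inhibitor Serpina1a (log2 fold change -2.12, adjusted p = 0.327, edgeR, and -3.07 without CAC replicate 3), and with the fetuin gene Ahsg at 2.79 (adjusted p = 0.428, edgeR), or 0.21 without CAC replicate 3 and 3.95 without CONT replicate 1. The part of liver transcripts in the Saa1 and Saa2 reads of this mouse was not tested.

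Lcn2 encodes a secreted lipocalin that binds bacterial siderophores and so withholds iron from bacteria, and it is a product of adipocytes, of neutrophil granules and of epithelia. It had the widest spread of the 8 tested genes, with the highest library at 188 times the lowest. No such ratio is given for Saa1 and Saa2, which had 0 reads in some libraries. Lcn2 was at 5.35, 126 and 1008 CPM in CONT and at 17.0, 31.1 and 149 CPM in CAC. The lowest and the highest values both belonged to CONT mice, and the CAC mice lay between them. Its log2 fold change was -2.53 (SE 1.64, 95% confidence interval -6.45 to 1.39) with an adjusted p of 0.523 by edgeR. The value turned on 1 mouse, since it was 0.01 without CONT replicate 3 and -3.97 without CAC replicate 3.

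Lcn2 was set beside transcripts of other tissues and cells in the same libraries, and the highest mouse of each group also held such transcripts. CONT replicate 3, at 1008 CPM of Lcn2, held 12206 CPM of epididymis markers, among them the epididymal peroxidase Gpx5 at 5354 CPM, which had 0 reads in CONT replicate 2 and CAC replicates 1 and 2. Of the 10 epididymis markers, Adam7 and Cst8 were the ones that could be tested. Adam7 was at 62.6, 2.41 and 1582 CPM in CONT and at 0, 0 and 0.0755 CPM in CAC (adjusted p = 0.228, edgeR), and Cst8 at 468 CPM in CONT replicate 3 and at most 15.3 CPM elsewhere (adjusted p = 0.482, edgeR). Lcn5, an epididymal relative of Lcn2, had 70.1 CPM in CONT replicate 1 and 9.36 CPM in CONT replicate 3, and 0 reads in the other 4 libraries. The epididymal lipocalins Lcn8 and Lcn9 were at 1801 and 1333 CPM in CONT replicate 3 and at most at 0.535 and 0.113 CPM elsewhere, and so peaked in the same library as Lcn2. CAC replicate 3, the highest CAC mouse for Lcn2, had the most neutrophil markers (1391 CPM). The part of epididymal or neutrophil transcripts in the Lcn2 level was not tested. In CONT replicate 2, where epididymis markers summed to 14.8 CPM and neutrophil markers to 52.2 CPM, Lcn2 was at 126 CPM, within the range of the CAC mice. CONT replicate 1, with the next highest epididymis sum (215 CPM), had the lowest Lcn2 (5.35 CPM). CAC replicates 1 and 2 had neutrophil sums of 183 and 288 CPM and Lcn2 at 17.0 and 31.1 CPM.

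Of the 12 neutrophil markers, 12 had a log2 fold change above 0, against 7943 of all 17296 tested genes, and 7 were higher in CAC at an unadjusted p under 0.05, against 6.31%. None passed an adjusted p of 0.05 by edgeR (0 of 12). By DESeq2 7 did, all higher in CAC, against 3.22% of all genes to which it assigned an adjusted p. In 8 of the 12 each CAC library lay above each CONT library, against 11.8% of all tested genes. The smallest p values were those of the collagenase Mmp8 (log2 fold change 5.61, adjusted p = 0.228, edgeR) and of Retnlg, a resistin-like gene (4.57, adjusted p = 0.231, edgeR). Without CAC replicate 3 they were 4.22 and 3.79, and without CONT replicate 3 Retnlg was 5.85. The log2 fold change of Lcn2 had the opposite sign with all 6 libraries, but it was 0.01 without CONT replicate 3. The difference in Lcn2 did not exceed the spread between mice.

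**Figure D3:**
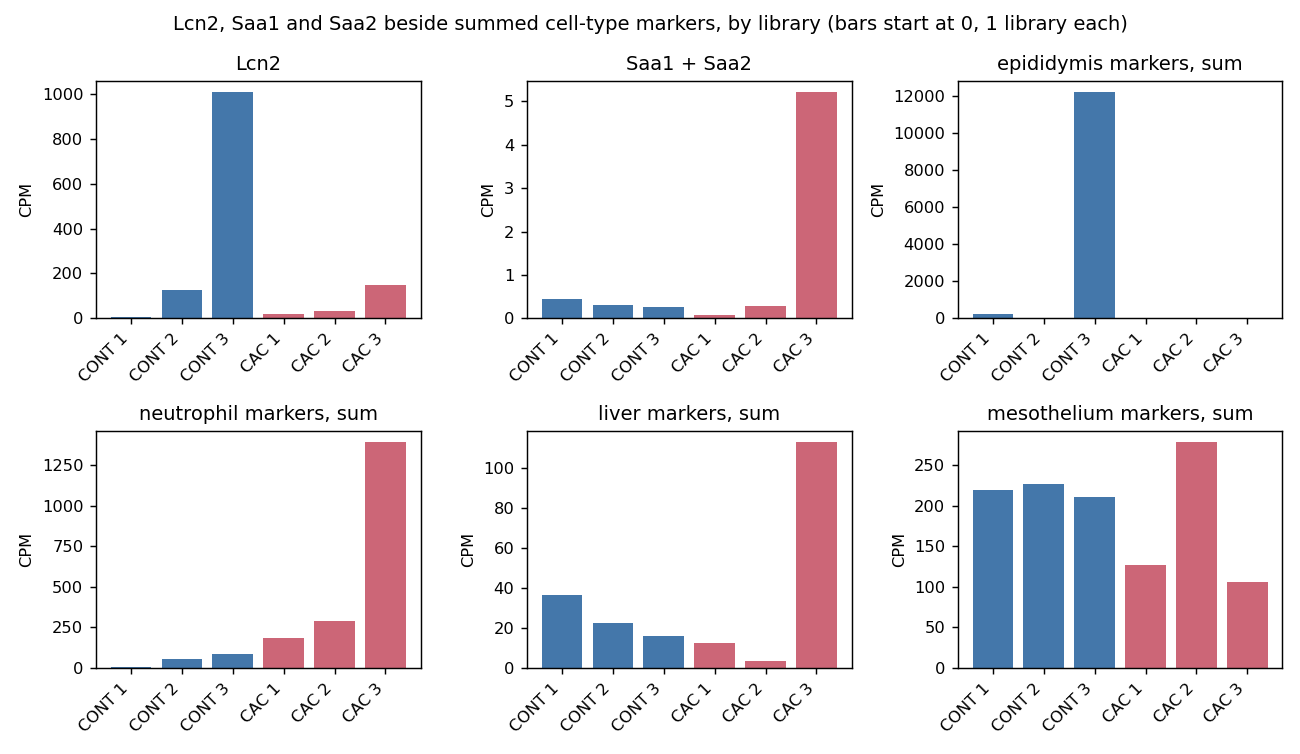
Levels of Lcn2 and of Saa1 plus Saa2 beside the summed CPM of marker lists for epididymis, neutrophils, liver and mesothelium, 1 bar per library (blue CONT, red CAC) on linear axes from 0. Lcn2 and the epididymis markers peak in CONT replicate 3 (1008 and 12206 CPM), and Saa1 plus Saa2, the neutrophil markers and the liver markers peak in CAC replicate 3.

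Orm1 encodes orosomucoid, or alpha-1-acid glycoprotein, a plasma lipocalin that carries lipids and basic drugs and dampens immune cell activation. It gave the smallest p of the 10 genes. Orm1 was at 104, 159 and 109 CPM in CONT and at 41.5, 22.5 and 51.7 CPM in CAC. The groups stood well apart, with the highest CAC mouse at 51.7 CPM and the lowest CONT mouse at 104 CPM. The level was 124 ± 30.8 CPM in CONT and 38.5 ± 14.8 CPM in CAC (SD, n = 3), a 3.21-fold lower fitted level, with a log2 fold change of -1.68 (SE 0.35, 95% confidence interval -2.53 to -0.84). By edgeR the p was 0.00238 unadjusted and 0.228 adjusted, rank 179 among the 17296 genes, and by DESeq2 the adjusted p was 0.00121. Leaving out any 1 mouse kept the log2 fold change between -1.94 and -1.40.

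The Orm genes lie close together on chromosome 4, and the coding sequence of Orm1 is identical to Orm2 at 89.9% and to Orm3 at 86.1% of aligned positions. Orm3 was at 24.0, 10.2 and 8.63 CPM in CONT and at 1.48, 3.07 and 5.06 CPM in CAC. As with Orm1, each CAC mouse was below each CONT mouse (log2 fold change -2.15, SE 0.61, adjusted p = 0.275, edgeR, and -1.54 without CONT replicate 1). Since Orm1 FPKM was 4.30 to 27.98 times that of Orm3 in the same library, a small share of misassigned Orm1 reads would weigh on Orm3. Orm2 was at or under 2.001 CPM in every library, with a log2 fold change of 0.21 (SE 1.02).

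Hp encodes haptoglobin, which binds hemoglobin freed from red cells and delivers it to the macrophage receptor Cd163. Hp was at 2568, 1383 and 1209 CPM in CONT and at 1310, 1180.3 and 1865 CPM in CAC. The highest value was that of CONT replicate 1, the library with 30.2% mitochondrial reads, and the groups overlapped. Its log2 fold change was -0.24 (SE 0.40, 95% confidence interval -1.20 to 0.71, adjusted p of 0.823 by edgeR), and without CONT replicate 1 it was 0.18. By the likeness rule used here (the smallest of the largest gaps in centred log2 CPM over the 6 libraries), the genes nearest to Hp were Tomm22 (0.08), A430005L14Rik (0.09) and the pseudogene H3f3a-ps1 (0.10).

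Cp encodes ceruloplasmin, the copper-bearing ferroxidase of plasma, which also exists as a membrane-bound form. Cp was at 94.3, 265 and 274 CPM in CONT and at 214, 155 and 159.8 CPM in CAC. All CAC mice lay between the lowest and the middle CONT value, and the lowest was CONT replicate 1. The log2 fold change was -0.26 (SE 0.42, adjusted p of 0.821 by edgeR), and it was -0.60 without CONT replicate 1 (unadjusted p = 0.0326, edgeR, with no overlap left between the groups) and 0.03 without replicate 3 of both groups. Cp overlaps Hps3 on the opposite strand, and without a stated strand setting reads of the shared part cannot be told apart, although Cp had 26455 reads in all and Hps3 3461. Heph, the membrane ferroxidase related to Cp, was at 71.6 to 89.5 CPM in CONT and at 47.7 to 120 CPM in CAC, with a log2 fold change of -0.04 (SE 0.34), and the sign was positive in 5 of 17 alternatives.

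Serpina3n encodes a secreted inhibitor of serine proteases such as granzyme B and neutrophil elastase, and it is one of several mouse genes that match the single human antichymotrypsin gene. Serpina3n was at 111, 226 and 222 CPM in CONT and at 273, 183 and 498 CPM in CAC. The highest value belonged to CAC replicate 3 and the lowest to CONT replicate 1, but CAC replicate 2 lay below 2 of the CONT mice. Its mean was 187 ± 65.4 CPM in CONT and 318 ± 163 CPM in CAC (SD, n = 3), with a log2 fold change of 0.77 (SE 0.45, 95% confidence interval -0.32 to 1.86, adjusted p = 0.494, edgeR). Without CAC replicate 3 it was 0.30, and leaving out other mice gave at most 1.06. The nearest genes by the same likeness rule were Rdh12 (0.26), Fer1l5 (0.26) and Gm5150 (0.32), each with a mean under 1 FPKM.

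Within a mouse, Serpina3n and Orm1 stood in opposite order in the 2 groups, a contrast picked after the values were seen. The FPKM of Serpina3n was 0.403, 0.534 and 0.768 times that of Orm1 in CONT and 2.47, 3.04 and 3.62 times in CAC. Orm1 was thus the higher of the pair in each CONT mouse and Serpina3n in each CAC mouse. No test is given, since the pair was chosen after its values were seen. A ratio within a library does not depend on the library total, but it does not say which of the pair differed.

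Serpina3g encodes an intracellular serpin of leukocytes that inhibits lysosomal cathepsins. It was at 3.39, 7.36 and 4.20 CPM in CONT and at 2.87, 4.601 and 6.46 CPM in CAC. The groups overlapped throughout, with a log2 fold change of -0.10 (SE 0.48, 95% confidence interval -1.25 to 1.04, adjusted p of 0.948 by edgeR). The sign was positive without CONT replicate 2 (0.29) or without CAC replicate 1 (0.21).

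Both serpins sit in a row of 11 Serpina3 genes on chromosome 12 between 104112724 and 104414329, and several of the others had larger differences than either. Of the 9 that could be tested, 6 were higher in CAC at an unadjusted p under 0.05, each with all CAC mice above all CONT mice, and 0 were lower, against 6.31% and 11.8% of all tested genes for these criteria. None of the 9 had an adjusted p under 0.05 by edgeR (0 genes, as over all genes), and DESeq2 gave an adjusted p under 0.05 to Serpina3b, Serpina3c, Serpina3i, Serpina3j and Serpina3m and none to Serpina3k, for which it returned no p. Over all genes, DESeq2 called 3.22% higher in CAC at that threshold.
Serpina3b was at 4.37, 2.89 and 2.21 CPM in CONT and at 15.9, 63.6 and 465 CPM in CAC (log2 fold change 5.86, SE 1.33, unadjusted p = 0.00365, edgeR). Serpina3k, which encodes a kallikrein-binding serpin, was at 5.17, 2.98 and 2.17 CPM in CONT and at 15.6, 28.2 and 447 CPM in CAC (5.59, SE 1.46, unadjusted p = 0.00725). In both genes CAC replicate 3 was far above the other CAC mice. Without that mouse the log2 fold change was 3.67 for Serpina3b and 2.69 for Serpina3k, with an unadjusted p of 0.00164 and of 0.00201 by edgeR. Albumin, as a liver transcript, was at 55.8 CPM in CAC replicate 3, at 10.02 and 1.21 CPM in CAC replicates 1 and 2, and at 10.4 to 23.2 CPM in CONT, and the part of liver transcripts in these levels was not tested.
Smaller differences were seen in Serpina3j (3.93, SE 0.80, and 2.93 without CAC replicate 3), Serpina3m (3.21, SE 0.98), Serpina3i (2.30, SE 0.48) and Serpina3c (0.89, SE 0.27), with unadjusted p of 0.00205, 0.0148, 0.00235 and 0.0144 by edgeR. Serpina3c stood nearest to Serpina3n in level, at 126 to 142 CPM in CONT and at 176 to 329 CPM in CAC. Serpina3m was at 1.96 to 3.68 CPM in CONT and at 6.49 to 69.8 CPM in CAC, and without CAC replicate 3 its log2 fold change was 1.37. Serpina3k lies inside the span of Serpina3m and 21.9% and 24.5% of the 50-base coding windows of the pair occur in another gene, so reads of these genes may have been assigned to one another.
Summed over all 11 genes, the row was at 342 ± 62.9 CPM in CONT and at 1002 ± 798 CPM in CAC (SD, n = 3), 2.93 times as high, with no overlap between groups (exact permutation test, two-sided, p = 0.1, the smallest possible). Without CAC replicate 3 the ratio was 1.58. Serpina3n made up 41.2% to 60.3% of this sum in CONT and 25.9% to 47.4% in CAC.

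**Figure D4:**
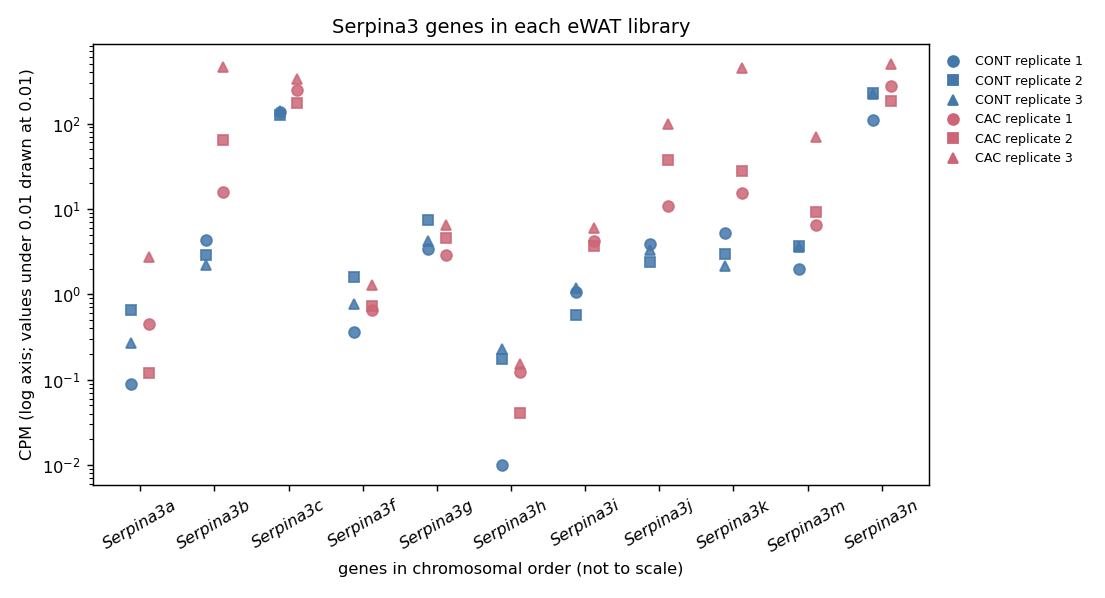
CPM (log axis, values under 0.01 drawn at 0.01) of the 11 Serpina3 genes in chromosomal order, 1 point per library with CONT in blue and CAC in red. Serpina3b, Serpina3c, Serpina3i, Serpina3j, Serpina3k and Serpina3m have all CAC mice above all CONT mice, while Serpina3g and Serpina3n overlap.

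Lrg1 encodes a leucine-rich secreted glycoprotein that modulates TGF-beta signalling in blood vessels and is also stored in neutrophils. It was at 297, 231 and 247 CPM in CONT and at 276, 245 and 409 CPM in CAC. Only CAC replicate 3 stood outside the CONT range. With the narrowest spread of the 8 tested genes (highest library 1.78 times the lowest), it had a log2 fold change of 0.26 (SE 0.27, 95% confidence interval -0.38 to 0.91, adjusted p of 0.698 by edgeR). The value was 0.02 without CAC replicate 3 and -0.02 without replicate 3 of both groups. The nearest genes were Pgm1 (0.03), Slc25a33 (0.10) and Ahsa1 (0.11).

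**Figure D5:**
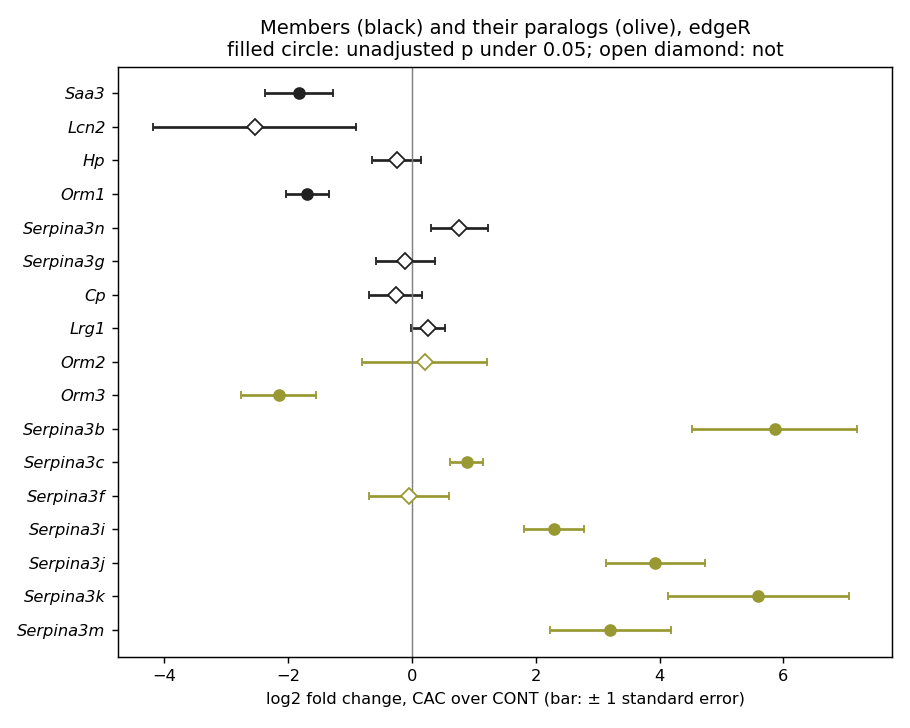
Log2 fold change (CAC over CONT, edgeR) with ± 1 standard error for the 8 tested acute-phase genes (black) and the tested paralogs of the Orm and Serpina3 families (olive), where filled circles have an unadjusted p under 0.05. Saa3, Orm1 and Orm3 lie below 0, 6 Serpina3 paralogs lie above 0, and Lcn2 has the widest bar of the 8 genes (SE 1.64).

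The genes that induce acute-phase proteins were examined as a separate list of 26 cytokines, receptors, kinases and transcription factors. Of the 24 tested, 9 were higher in CAC at an unadjusted p under 0.05 and 1 was lower, against 6.31% and 6.95% of all tested genes, and 20 had a log2 fold change above 0. No adjusted p was under 0.05 by edgeR (0 of 24), whereas DESeq2 gave one to 6 of the 24, with 5 higher (Cebpd, Il6ra, Stat3, Osmr and Nfkbia) and 1 lower (Lif), against 3.22% and 2.4% of all genes to which it assigned one. The smallest p was that of Cebpd, a C/EBP factor that switches on early in the acute phase, at 57.7, 33.9 and 30.3 CPM in CONT and at 127, 119 and 138 CPM in CAC (log2 fold change 1.66, SE 0.28, adjusted p = 0.215, edgeR). Il6ra, the receptor chain that binds IL-6, was at 21.2, 42.8 and 56.1 CPM in CONT and at 172, 132 and 132 CPM in CAC (1.85, SE 0.37, adjusted p = 0.224, edgeR). In both genes the groups stood clear of each other. Named after their values were seen, the remaining receptor and signalling genes of the 9 included Stat3 (1.03, SE 0.27), Osmr (0.90, SE 0.21) and Il6st (0.88, SE 0.33), while the gene lower in CAC was the cytokine Lif (-1.74, SE 0.48). Il6 itself was too low to test, at 0.0892 to 0.226 CPM in CONT and 0.0411 to 0.453 CPM in CAC, and no direction can be read from it.

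Other acute-phase genes, outside the 10, were mixed in direction. Of 24 listed, 16 were tested, with 3 higher and 2 lower in CAC at an unadjusted p under 0.05 (6.31% and 6.95% of all tested genes). By edgeR 0 passed an adjusted p of 0.05, and DESeq2 called 2 higher and 1 lower (3.22% and 2.40% over all genes). Their median log2 fold change was 0.89. Ptx3, a long pentraxin made at sites of inflammation, was at 2.23, 1.88 and 2.35 CPM in CONT and at 0.739, 0.282 and 0.491 CPM in CAC (-2.08, SE 0.51, adjusted p = 0.242, edgeR). Itih4, an inter-alpha-trypsin inhibitor chain, was at 3.57, 3.37 and 5.02 CPM in CONT and at 4.68, 29.8 and 56.6 CPM in CAC (2.93, SE 0.83, adjusted p = 0.273, edgeR, and 2.12 without CAC replicate 3). Ptx3 was lower in each CAC mouse, whereas the Itih4 difference rested on CAC replicates 2 and 3. Among the receptors, ligands and targets of the 10 proteins, Elane, the neutrophil elastase that Serpina3n inhibits and itself a neutrophil marker, had the smallest p (log2 fold change 2.03, SE 0.50, adjusted p = 0.243, edgeR).

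Markers of 2 more cell types of the fat pad overlapped between the groups in their sums. Mesothelial markers, from the layer that covers the fat pad and can itself make Saa3, summed to 210 to 227 CPM in CONT and to 127, 278 and 106 CPM in CAC, with Lrrn4 at a log2 fold change of 0.70 (adjusted p = 0.347, edgeR) and Msln at -0.76 (adjusted p = 0.522, edgeR). Endothelial markers summed to 1406 to 3044 CPM in CONT and to 1953 to 2241 CPM in CAC, with Vwf at 1.02 (adjusted p = 0.383, edgeR) and Egfl7 at -1.31 (adjusted p = 0.456, edgeR), which was 0.041 without CONT replicate 1.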

How the data were processed

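RNA of eWAT from 3 CAC and 3 CONT mice was extracted with TRIzol, poly(A) mRNA was selected and libraries were made with a NEBNext Ultra II kit. The authors aligned reads to GRCm38, as given by Ensembl, using HISAT2 2.0.5 and, per the submitters' processing notes, counted them with featureCounts 1.5.0-p3. Strand setting and the handling of reads that match several places are not given in the sources used here. The deposited counts are whole reads per gene, not normalized, and the deposited FPKM values scale the same counts by the length of each gene and by a library size that is not the total count. Read back from the values, it was 1.21 to 1.24 times the total count multiplied by the TMM factor in each library.

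Groups were taken from the sample labels. Counts were tested with edgeR 4.0.16 in R 4.3.3 (TMM, filterByExpr by group, robust quasi-likelihood fit, condition as the sole term, Benjamini-Hochberg over 17296 genes). Alternatives were other normalizations (RLE, upper quartile, totals without mitochondrial genes), no filter or at least 10 counts in every library, DESeq2 1.42.0, the replicate number as a block, each mouse left out, and limma 3.58.1 on log2(FPKM + 1), with and without a filter on low values, and on log2(FPKM + 0.1), where fold changes of low genes are understated. Leaving out replicate 3 of both groups was added after the data were seen. The tests were tried on simulated counts. The depth, 15713794 to 25926425 reads, made 1 read at most 0.0892 CPM, and the precision was estimated gene by gene, with standard errors of 0.27 (Lrg1) to 1.64 (Lcn2) among the 8 tested genes. Groups do not overlap where each CAC mouse is above, or each below, each CONT mouse.

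The 10 genes and all lists were chosen with earlier results of these data known. Named are the 10 genes, paralogs with a mean of at least 1 FPKM, the 2 smallest p values of every other list (none passed an adjusted p of 0.05 by edgeR without the replicate block, whereas several did by DESeq2, and 1 of these genes is not reported here), and the 3 genes most like each of the 3 highest members. Named beyond this rule, after values were seen, were Alb, Fgb, Cps1, Gpx5, Lcn8, Lcn9, Saa4, Orm2, Lep, Dcn, Stat3, Osmr, Nfkbia, Il6st, Lif and Il6. Sequences are from GENCODE M21 transcripts and the RefSeq promoter table, both on GRCm38. The NF-kB letters replaced a form longer by 1 base after its matches were seen.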

Additional observations from a re-analysis of the deposited data

How the results depend on the processing

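Under 17 alternatives, 3 of the 8 tested acute-phase genes (Saa3, Orm1 and Serpina3n) kept the sign of their log2 fold change in each, as did 27 of the 30 other named genes in each alternative that gave them a value. The count of genes past an adjusted p of 0.05 was 0 with edgeR under all normalizations, both filters and each mouse left out, and it was 965 with DESeq2, 1 with the replicate block (Adam7), 5 with limma on log2(FPKM + 1), 6 with limma on log2(FPKM + 0.1) and 0 with limma on log2(FPKM + 1) without a filter (2215 of 34214 at an unadjusted p under 0.05). Of the 10 genes, 2 passed with DESeq2 and 0 otherwise. With mice left out in turn, 1 to 3 of them had an unadjusted p under 0.05 (1 without CONT replicate 2, which lost Saa3, and 3 without CONT replicate 1, which added Cp), while 1384 to 3032 of the 17859 to 19459 genes tested did. Signs turned as follows, with the cause not tested. Without CONT replicate 1, Hp was 0.18 and Egfl7 0.041. Serpina3g was 0.29 without CONT replicate 2 and 0.21 without CAC replicate 1. Lcn2 was 0.0078 without CONT replicate 3. Heph was 0.042 without the filter on low counts, 0.06 without CONT replicate 3, 0.07 without CAC replicate 2, 0.23 without CAC replicate 3 and 0.30 without replicate 3 of both groups. That last alternative, which was chosen after seeing the data, also gave Cp 0.035, Lrg1 -0.017 and Ahsg -0.16. With mice left out in turn, the lowest values were -3.97 for Lcn2, -0.46 for Hp, -0.41 for Serpina3g, -0.42 for Heph and -1.69 for Egfl7. Replicate numbers were not taken as pairs, because neither the labels nor the paper describe a pairing. The deviations of same-numbered mice correlated at 0.31, -0.15 and -0.22. These values cannot decide the question, since mice of different numbers were not compared. With the replicate number as a block, 1992 genes had an unadjusted p under 0.05 and 2 of the acute-phase genes did, and a count of genes that do not overlap has no value under a block. With 3 mice per group, exact tests cannot go below p = 0.1, and Saa1, Saa2 and Il6 were limited by depth.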
